A study of Rattus norvegicus with 16 samples.

Results

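The growth hormone axis of the liver was followed through 10 genes, which were the receptor Ghr, the feedback inhibitor Socs2, the hormone Igf1, its carriers Igfals, Igfbp1, Igfbp2 and Igfbp3, and the male-pattern outputs Cyp2c11, Mup5 and Obp3. They were chosen by name, as the genes of this axis, with earlier results of these data known. A gene was measured by the probe sets that the array's annotation assigns to its symbol alone, and its value was that of the probe set with the highest mean over 16 arrays. All 10 genes were found, on 14 probe sets that all passed the filter on low values, among 11435 genes tested. Ghr, Igfbp3, Mup5 and Obp3 had more than 1 probe set, and the further sets are given beside the first.

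Liver RNA of 16 male rats of the inbred strain F344 was hybridised to RG-230 PM arrays from Affymetrix, 1 for each animal. The rats were 4 weeks old and were reared for 3 weeks in 4 groups of 4. The control normal-diet group ate the basal chow CE-2, drank dehydrogenized water and lived in air, and the hydrogen normal-diet group ate the same chow, drank hydrogen-rich water (0.7 mM hydrogen) and was kept in air containing 2% hydrogen. The control CDAA group and the hydrogen CDAA group had the same 2 environments on the CDAA diet, a choline-deficient feed in which defined L-amino acids replace protein, which is known to produce fatty liver in rats. The chow and the defined diet differ in more than choline, so no group separates choline from the other components. The comparisons asked how the axis differed between the diets with and without hydrogen, how hydrogen acted on either diet, and whether these effects depended on each other. Rats are named below by group and replicate number, and a number shared between groups was not taken to pair rats. Values are deposited log2 signals, in which a difference of 1 is a doubling, and a call is an adjusted p under 0.05 in limma. The p-values set a difference against the spread between rats of the same group. Nothing in the labels gives strip position or scan date, so a batch of either kind was not tested.

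Growth hormone from the pituitary binds its receptor GHR on hepatocytes, which activates the kinase JAK2 and the transcription factor STAT5b. STAT5b drives transcription of Igf1 and Igfals, so that the liver supplies most of the circulating insulin-like growth factor 1, and of Socs2, which in turn damps receptor signalling. In male rats growth hormone is secreted in pulses, and this pattern maintains male-specific liver genes such as Cyp2c11 and those of the alpha-2u-globulin (major urinary protein) family. Igfbp1 is under separate control and is known to be repressed by insulin and raised by fasting and by amino acid shortage.

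In control rats the CDAA diet lowered 6 of the 10 genes, which were Ghr, Igf1, Igfals, Cyp2c11, Mup5 and Obp3, and raised Igfbp1 and Igfbp2. Of all genes tested, 13.3% were called lower and 27.3% higher in this comparison. Socs2 and Igfbp3 were not called. The groups did not overlap for 8 of the 10 genes, against 38% of all genes, and the median difference over the 10 genes was −0.89 log2 against 0.04 over all genes. In hydrogen-treated rats the diet lowered 8 genes, the same 6 with Socs2 and Igfbp3, and raised the same 2, against 17.3% of all genes called lower and 32.1% higher. There the groups did not overlap for 9 of the 10 genes, against 43.8% of all genes, with a median difference of −1.14 against 0.05 log2. The calls of these 10 genes in both diet comparisons were kept under each other scaling of the arrays that was tried.

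**Figure D1:**
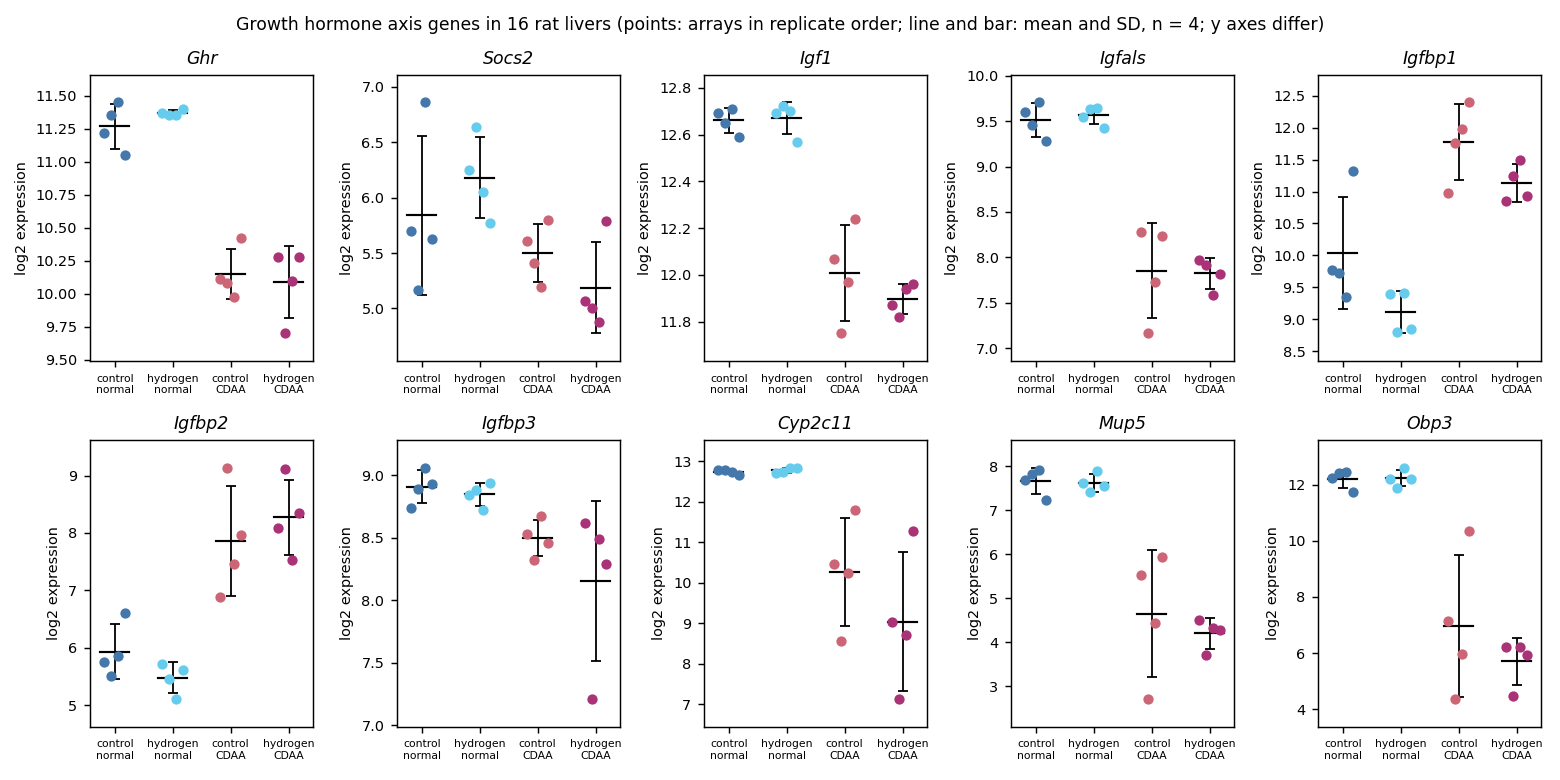
Log2 expression of the 10 genes on each array, with 1 panel per gene, the 4 groups along the x axis and log2 signal on y axes that differ between panels (points are arrays in replicate order, lines and bars mean and SD, n = 4). Obp3 lies between 11.74 and 12.61 on the normal diet and between 4.37 and 10.34 on the CDAA diet, and Igfbp2 lies between 5.11 and 6.61 and between 6.89 and 9.14.

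Ghr (chr2:54269066-54532595, minus strand, GRCr8), the receptor through which the liver senses growth hormone, was lower in every CDAA rat. It measured 11.22, 11.35, 11.45 and 11.05 log2 in the control normal-diet rats and 11.37, 11.35, 11.35 and 11.40 in the hydrogen normal-diet rats. It measured 10.11, 10.08, 9.98 and 10.42 in the control CDAA rats and 10.28, 9.70, 10.10 and 10.28 in the hydrogen CDAA rats. The lowest normal-diet rat therefore stood 0.63 log2 above the highest CDAA rat. Ghr was 2.17-fold lower in control rats (log2 −1.12, standard error 0.122, limma adjusted p = 9.94e-06) and 2.42-fold lower under hydrogen (adjusted p = 1.55e-06). The other Ghr probe set, at a lower level, fell by 1.15 and 1.27 log2, with groups that did not overlap either.

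Socs2, which is induced by growth hormone signalling and then restrains it, was the most variable of the upstream genes relative to its change. Its values were 5.70, 5.17, 6.86 and 5.63 log2 in the control normal-diet rats and 6.25, 6.64, 6.05 and 5.77 in the hydrogen normal-diet rats. On the CDAA diet they were 5.61, 5.41, 5.19 and 5.80 in control and 5.07, 5.00, 4.88 and 5.79 in hydrogen-treated rats. The groups overlapped in both environments, and replicate 3 of the control normal-diet group was the highest of all 16 rats. Socs2 was 1.99-fold lower on the CDAA diet under hydrogen (adjusted p = 0.0116). In control rats the difference was −0.34 log2 (95% interval −0.95 to 0.28, adjusted p = 0.395), and without replicate 3 of the normal-diet group it was 0.0025. That the diet's effect on Socs2 differed between the environments was not shown, since the interaction was −0.66 log2 with an adjusted p of 0.663.

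Igf1 encodes the hormone itself, and its probe set gave values near the array's highest signal of 13.73, where array signals can saturate, which was not tested. Control normal-diet rats had 12.69, 12.65, 12.71 and 12.59 log2 and hydrogen normal-diet rats 12.69, 12.72, 12.70 and 12.57. Control CDAA rats had 12.07, 11.75, 11.97 and 12.24 and hydrogen CDAA rats 11.87, 11.82, 11.94 and 11.96. The groups on the 2 diets did not overlap, and the normal-diet rats lay within 0.15 log2 of each other. Igf1 was 1.57-fold lower in control rats (adjusted p = 2.73e-05) and 1.71-fold lower under hydrogen (adjusted p = 3.46e-06).

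Igfals encodes the acid-labile subunit, which holds IGF-1 and IGFBP-3 in a long-lived complex in the circulation. It measured 9.60, 9.46, 9.71 and 9.28 log2 in control and 9.55, 9.64, 9.65 and 9.43 in hydrogen-treated rats on the normal diet. On the CDAA diet it measured 8.28, 7.16, 7.73 and 8.24 in control and 7.97, 7.91, 7.59 and 7.82 in hydrogen-treated rats. Every CDAA rat was at least 1.00 log2 below every normal-diet rat. The falls were 3.16-fold in control rats (log2 −1.66, standard error 0.185, adjusted p = 1.21e-05) and 3.35-fold under hydrogen (adjusted p = 3.82e-06).

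Igfbp3, the main carrier of IGF-1 in serum, gave different answers on its 2 probe sets. On the set that stands for the gene the values were 8.74, 8.89, 9.06 and 8.93 log2 in control normal-diet, 8.84, 8.88, 8.72 and 8.94 in hydrogen normal-diet, 8.53, 8.32, 8.67 and 8.46 in control CDAA and 8.62, 7.21, 8.49 and 8.29 in hydrogen CDAA rats. The diets did not overlap on this set, and replicate 2 of the hydrogen CDAA group was far below the rest. Igfbp3 was 1.62-fold lower under hydrogen (adjusted p = 0.0145), and in control rats the difference was −0.41 log2 with an adjusted p of 0.146. Without hydrogen CDAA replicate 2 the same −0.41 log2 in control rats had a standard error of 0.0899 in place of 0.211 and an adjusted p of 0.00216. Under hydrogen the fall shrank to −0.38 log2 (1.30-fold) without that rat. The call under hydrogen was kept in each fit with an array left out (limma adjusted p up to 0.0370). The other probe set lay between 7.90 and 8.45 log2 on all arrays, with differences of −0.02 and −0.12 log2 that were not called, so the direction of Igfbp3 rests on 1 probe set.

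Igfbp1 encodes a short-lived carrier that limits free IGF-1, and Igfbp2 a carrier that is low in the adult liver and known to rise when growth hormone action or insulin is low. Igfbp1 measured 9.77, 9.72, 9.35 and 11.32 log2 in control normal-diet, 9.39, 8.80, 9.41 and 8.84 in hydrogen normal-diet, 10.98, 11.76, 11.98 and 12.40 in control CDAA and 10.85, 11.25, 11.49 and 10.93 in hydrogen CDAA rats. Replicate 4 of the control normal-diet group stood within the range of the CDAA rats, so the diets overlapped in control rats, and they did not under hydrogen. In control rats the CDAA diet raised Igfbp1 3.34-fold (log2 1.74, standard error 0.354, adjusted p = 0.00125) and under hydrogen 4.06-fold (adjusted p = 2.88e-04). Igfbp2 measured 5.76, 5.51, 5.85 and 6.61 in control normal-diet, 5.72, 5.46, 5.11 and 5.62 in hydrogen normal-diet, 6.89, 9.14, 7.46 and 7.96 in control CDAA and 8.08, 9.12, 7.53 and 8.35 in hydrogen CDAA rats. The diets did not overlap, and replicate 2 of each CDAA group was the highest of its group. Igfbp2 was 3.81-fold higher in control rats (log2 1.93, standard error 0.395, adjusted p = 0.00133) and 6.93-fold higher under hydrogen (adjusted p = 4.47e-05).

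Igfbp1 and Igfbp3 are neighbours on chromosome 14, separated by 3863 bases in GRCr8, and Igfbp1 rose on the CDAA diet while Igfbp3 did not. The Igfbp1 promoter is shown because the rat gene is the textbook case of an insulin response element, CAAAACA, at which FOXO factors bind. The 250 bases before its start (RefSeq, GRCr8, chr14:86261027-86261276, plus strand) hold 1 match, in capitals.
Igfbp1: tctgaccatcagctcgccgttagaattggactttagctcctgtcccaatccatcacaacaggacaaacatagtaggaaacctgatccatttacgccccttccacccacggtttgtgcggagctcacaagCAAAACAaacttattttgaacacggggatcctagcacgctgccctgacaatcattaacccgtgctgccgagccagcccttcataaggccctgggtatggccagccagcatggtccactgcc

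Promoters were available for 9 of the 10 genes, all but Socs2, as 300 bases from 250 before to 50 after a RefSeq start. CAAAACA, searched on both strands, occurred in 4 of them, those of Igf1, Igfbp1, Mup5 and Obp3, and in 6.28% of the 33469 promoters of this length. The motif was chosen as the element known from Igfbp1, so that match was fixed beforehand. The windows of Mup5 and Obp3 are near copies, so their matches are not independent. The count of 4 therefore cannot be read as an excess over the 6.28%. These 4 genes did not move together, since Igfbp1 rose and the other 3 fell. The STAT5 motif TTCNNNGAA, also searched on both strands, occurred in 0 of the 9 windows and in 8.87% of all promoters, and Cish, a known STAT5 target outside the 10 genes, had 4 matches. Sites further from the start are outside these windows.

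Cyp2c11, the male-specific steroid hydroxylase of rat liver, fell and became highly variable on the CDAA diet. It was nearly constant on the normal diet, at 12.80, 12.79, 12.73 and 12.66 log2 in control and 12.72, 12.73, 12.84 and 12.84 in hydrogen-treated rats. Like those of Igf1, these normal-diet values lie near the array's highest signal of 13.73, where array signals can saturate, which was not tested. On the CDAA diet it was 10.47, 8.56, 10.24 and 11.80 in control and 9.02, 7.13, 8.72 and 11.29 in hydrogen-treated rats. All CDAA rats lay below all normal-diet rats, but replicate 4 of each CDAA group lost far less than the other 3. The fall was 5.57-fold in control rats (log2 −2.48, standard error 0.666, adjusted p = 0.00841) and 13.4-fold under hydrogen (adjusted p = 3.29e-04). Under hydrogen it was 8.61-fold without CDAA replicate 2 and 22.5-fold without CDAA replicate 4.

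Mup5 and Obp3 belong to the alpha-2u-globulin family, small lipocalins that male rat liver secretes in quantity and that reach the urine as pheromone carriers. The genes lie 355 kb apart on the minus strand of chromosome 5 in a cluster of similar genes, and their probe sets may bind transcripts of relatives, so each value may include other members of the family. Their promoters are shown because the 2 genes fell together and because the windows are near copies. Over 282 aligned positions of the 300-base windows, 274 were identical (97.2%). The stretches before the whole annotated gene are printed here (RefSeq, GRCr8, minus strand, chr5:79640811-79640925 for Obp3 and chr5:79999894-79999945 for Mup5), with the reverse complement of CAAAACA in capitals.
Obp3: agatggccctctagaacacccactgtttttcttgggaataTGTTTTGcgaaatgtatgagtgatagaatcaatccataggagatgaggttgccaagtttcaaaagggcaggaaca
Mup5: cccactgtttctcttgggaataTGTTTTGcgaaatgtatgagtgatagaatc

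Mup5 measured 7.69, 7.82, 7.92 and 7.23 log2 in control and 7.62, 7.41, 7.90 and 7.55 in hydrogen-treated rats on the normal diet. On the CDAA diet it measured 5.54, 2.72, 4.43 and 5.93 in control and 4.52, 3.71, 4.32 and 4.28 in hydrogen-treated rats. The diets did not overlap, and 1 control CDAA rat lay below the detection line of 3.68 log2. Mup5 was 8.06-fold lower in control rats (log2 −3.01, standard error 0.468, adjusted p = 1.56e-04) and 10.6-fold lower under hydrogen (adjusted p = 3.47e-05), and 5.15-fold lower in control rats without CDAA replicate 2. Its other probe set lay between 4.00 and 4.90 log2 in normal-diet rats and below the line in all 8 CDAA rats.

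Obp3 had the largest fall of the 10 genes. It measured 12.24, 12.42, 12.45 and 11.74 log2 in control and 12.19, 11.90, 12.61 and 12.21 in hydrogen-treated rats on the normal diet. As for Igf1 and Cyp2c11, these values approach the array's highest signal of 13.73, where array signals can saturate, which was not tested. On the CDAA diet it measured 7.13, 4.37, 5.96 and 10.34 in control and 6.22, 4.46, 6.22 and 5.94 in hydrogen-treated rats. No CDAA rat reached a normal-diet rat, and the control CDAA rats ranged over 5.97 log2. The fall was 38.4-fold in control rats (log2 −5.26, standard error 0.827, adjusted p = 1.69e-04) and 91.6-fold under hydrogen (log2 −6.52, adjusted p = 1.75e-05). In control rats it was 21.1-fold without CDAA replicate 2 and 84.0-fold without CDAA replicate 4. The other Obp3 probe set, which fell by 6.50 log2 in control rats and by 8.68 under hydrogen, showed control CDAA replicate 4 at 10.46 log2 and the other 7 CDAA rats between 3.29 and 5.11.

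**Figure D2:**
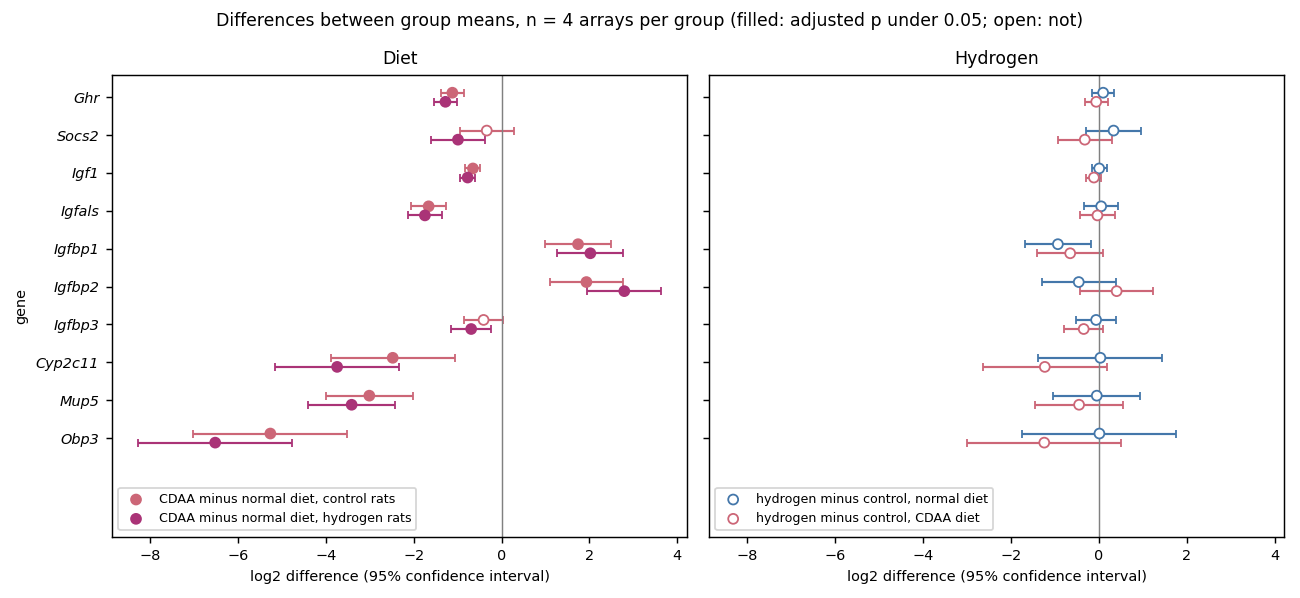
Differences between group means for the 10 genes in log2, as points with 95% intervals (n = 4 arrays per group, filled where the adjusted p was under 0.05), with the 2 diet comparisons in one panel and the 2 hydrogen comparisons in the other. The diet differences run from −6.52 for Obp3 to 2.79 for Igfbp2, and no hydrogen difference is filled.

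Hydrogen called 0 of the 10 genes on either diet. On the normal diet 1 of all 11435 genes was called (0.00875%), and on the CDAA diet 43 were (0.376%). At an unadjusted p under 0.05 there was 1 of the 10 genes on the normal diet and 0 on the CDAA diet, and the smallest limma adjusted p-values were 0.586 and 0.503. The intervals were narrow for Ghr and Igf1. For Ghr the hydrogen difference was 0.10 log2 on the normal diet (95% interval −0.16 to 0.36) and −0.06 on the CDAA diet (−0.32 to 0.20), and for Igf1 it was 0.01 (−0.16 to 0.18) and −0.11 (−0.28 to 0.06). Larger effects were not shown to be absent for the outputs, since Obp3 on the CDAA diet differed by −1.24 log2 with an interval of −2.99 to 0.51 and Cyp2c11 by −1.23 with an interval of −2.64 to 0.18. With an array left out these ran from −2.10 (without control CDAA replicate 2) to −0.11 (without control CDAA replicate 4) for Obp3, and from −1.98 (without hydrogen CDAA replicate 4) to −0.59 (without hydrogen CDAA replicate 2) for Cyp2c11, with 0 calls. For Cyp2c11 the difference was −0.72 without control CDAA replicate 4. The other Obp3 probe set, which is outside these counts, differed by −2.155 log2 on the CDAA diet (95% interval −4.27 to −0.04). Its limma unadjusted p was 0.0467 and its adjusted p 0.422. With an array left out the difference on this set ran from −2.975 to −0.585 log2, without a call. On this set 3 of the hydrogen CDAA arrays lay at or below the detection line.

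Igfbp1 was the gene with an unadjusted p under 0.05. It was 0.93 log2 lower in the hydrogen normal-diet rats (95% interval −1.68 to −0.18, unadjusted p = 0.0182, limma adjusted p = 0.586). Without control normal-diet replicate 4 the difference was −0.50 log2. On the CDAA diet it was −0.65 log2 (95% interval −1.40 to 0.10). The interaction of hydrogen with diet was called for none of the 10 genes by limma, with adjusted p-values of 0.663 to 0.949 over the 10 genes, 0 of them with an unadjusted p under 0.05, and 0% of all genes called. For Obp3, Cyp2c11 and Socs2 the interaction was −1.26, −1.27 and −0.66 log2, which this test did not separate from the spread between rats. The other Ghr probe set did not overlap between the hydrogen and control normal-diet rats (0.35 log2 higher, adjusted p = 0.777), as was the case for 5.69% of all genes.

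The CDAA rats differed from each other in how much of the axis they had lost. Among the 6 genes lowered in control rats, control CDAA replicate 4 was the highest of all 8 CDAA rats for 5, Ghr, Igf1, Cyp2c11, Mup5 and Obp3, and its Igfals of 8.24 log2 was just below the 8.28 of control CDAA replicate 1. Control CDAA replicate 2 was the lowest for 4, Igf1, Igfals, Mup5 and Obp3, and hydrogen CDAA replicate 2 was the lowest for Ghr and Cyp2c11. These same 2 rats had the highest Igfbp2, at 9.14 and 9.12 log2. The genes did not order the rats in 1 way throughout. Control CDAA replicate 4, with the best kept outputs, also had the highest Igfbp1 of all rats, at 12.40 log2, and hydrogen CDAA replicate 4 had kept Cyp2c11 at 11.29 while its Obp3 was 5.94. The 2 replicates numbered 2 had the lowest array quality weights in limma, 0.548 and 0.498 on a scale where an average array has 1, and the part of array quality in these values was not tested.

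**Figure D3:**
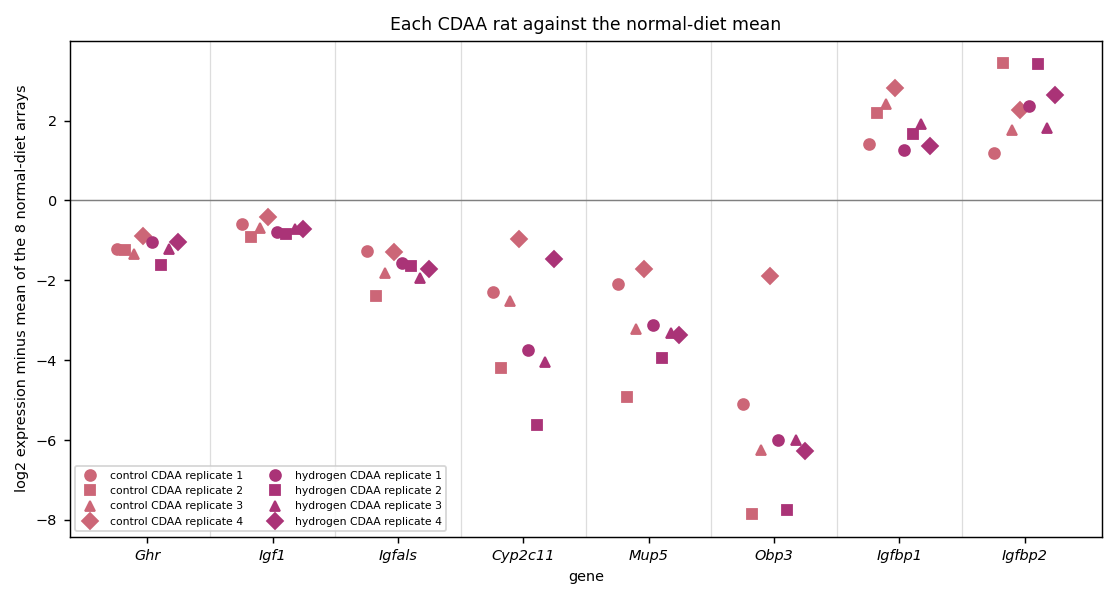
Log2 expression of each CDAA rat minus the mean of the 8 normal-diet rats for 8 of the genes, with 1 symbol per rat. Control CDAA replicate 4 lies nearest to the normal-diet mean for Obp3, Mup5 and Cyp2c11, and both replicates numbered 2 lie highest for Igfbp2.

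One rat on the normal diet stood toward the CDAA rats. Control normal-diet replicate 4 was the lowest of its group for Ghr, Igf1, Igfals, Cyp2c11, Mup5 and Obp3 and the highest for Igfbp1 and Igfbp2. For Igfbp1 it had 11.32 log2 against 9.35 to 9.77 in the other 3, and for Igfbp2 6.61 against 5.51 to 5.85. It lay within the other 3 for Socs2 and Igfbp3. The 6 lowered genes were still outside the CDAA range in this rat, for example Obp3 at 11.74 log2 against at most 10.34.

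The genes whose profile over the 16 arrays was nearest to that of the most variable members were found by the root mean square difference of gene-centred log2 values. This is a description of shared ups and downs over the same arrays, most of which are the split between the diets. Obp3 (SD over arrays 3.30 log2) was nearest to Stac3 (0.627 log2) and Cyp3a9 (1.18). Cyp2c11 (SD 1.93) was nearest to Nrep (0.641) and to Mup5 (0.760), and Mup5 (SD 1.80) to Nrep (0.638) and to C6, a complement component (0.676). Igfbp2 (SD 1.37) was nearest to Acsm2 (0.406) and Fmo5 (0.419).

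The rest of the signalling pathway did not move one way. Of 32 listed genes of growth hormone, prolactin and IGF signalling and binding outside the 10, 29 were measured, of which 6 were called higher and 5 lower in control rats and 8 higher and 7 lower under hydrogen. Over all genes tested, 27.3% were called higher and 13.3% lower in control rats, and 32.1% and 17.3% under hydrogen. The list's median differences were 0.05 and 0.04 log2, close to those of all genes, and turned negative when the arrays were centred on their medians (−0.02 and −0.06) and in control rats also with quantile normalisation applied again (−0.04). Stat5b, the transcription factor that carries the growth hormone signal in liver, fell by 0.36 log2 in control rats (adjusted p = 0.00293) and by 0.32 under hydrogen (adjusted p = 0.00524), at levels of 3.98 to 4.78 log2 that lie near the detection line. Its relative Stat5a fell by 0.26 log2 (adjusted p = 0.0140) and 0.23 (adjusted p = 0.0230), calls that ended when control normal-diet replicate 1 (0.0528), hydrogen normal-diet replicate 1 (0.0542) or 4 (0.0752), or hydrogen CDAA replicate 3 (0.0771) was left out. Jak2, the receptor's kinase, differed by 0.22 log2 in control rats with an adjusted p of 0.0617, which passed under array weights (0.0360) and in 3 of the fits without 1 array. Cish, another STAT5-induced inhibitor, differed by 0.68 log2 in control rats (adjusted p = 0.278) and by −0.51 under hydrogen (adjusted p = 0.382).

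The called genes of smallest p in this list were higher. In control rats Igf2r, which clears IGF-2, was 0.67 log2 higher (adjusted p = 4.99e-05), Igfbp7, a binding protein of vessel and stromal cells, was 0.80 higher (adjusted p = 4.02e-04), and Ptpn11, the phosphatase SHP2, was 0.52 higher (adjusted p = 4.08e-05). Ptpn2, a phosphatase that acts on JAK and STAT proteins, was 0.39 higher (adjusted p = 5.72e-04), and its call under hydrogen (0.25 log2) ended with either rescaling of the arrays. Bcl6, a transcriptional repressor that can bind STAT5 sites in liver, was looked at after its values were seen. It measured 9.94, 9.31, 6.99 and 9.01 log2 in control normal-diet, 6.54, 5.55, 5.90 and 5.69 in hydrogen normal-diet, 5.19, 5.02, 6.82 and 7.15 in control CDAA and 6.68, 8.53, 8.10 and 4.58 in hydrogen CDAA rats. It was lower on the CDAA diet in control rats (log2 −2.77, adjusted p = 0.00979) and 1.05 higher without a call under hydrogen (adjusted p = 0.273), and its interaction of 3.82 log2 had an adjusted p of 0.332. On the normal diet Bcl6 was 2.89 log2 lower in hydrogen-treated than in control rats, without a call (limma adjusted p = 0.329). These 2 groups did not overlap, as was the case for 5.69% of all genes. Without hydrogen CDAA replicate 4 the diet's rise of Bcl6 under hydrogen was 1.85 log2 with an adjusted p of 0.0324, and without control normal-diet replicate 3 the difference in control rats was −3.38 log2. Onecut1, also named after its values were seen, fell by 2.09 log2 under hydrogen (limma adjusted p = 0.0150), with groups that overlapped. In control rats it differed by 0.42 log2 (limma adjusted p = 0.646), and its interaction of −2.51 had an adjusted p of 0.460.

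Calls among other male-pattern liver genes were falls only. Of 13 listed, 10 were measured, and 4 were called lower in control rats and 6 under hydrogen. None was called higher, and the median differences were −0.51 and −0.83 log2. In control rats 6 were not called, with differences from −1.49 log2 (Sult1e1) to −0.0075 (Cyp2c22). Under hydrogen Dhrs7 had a higher mean on the CDAA diet (8.76 against 8.67 log2) without a call. Over all genes tested, 13.3% were called lower and 27.3% higher in control rats, and 17.3% and 32.1% under hydrogen. With median centring 9 of the 10 male-pattern genes were lower under hydrogen, but this scaling also moved the lower calls over all probe sets from 4371 to 8167. Quantile normalisation applied again gave 6 lower under hydrogen, and either rescaling gave 5 in control rats. Hsd3b5, a male-specific steroid reductase of rodent liver, went from 11.23 to 11.43 log2 in control normal-diet rats to 9.02 to 10.40 in control CDAA rats (log2 −1.59, adjusted p = 0.00354). Cyp2a2, a male-specific cytochrome, fell by 1.50 log2 (adjusted p = 5.26e-04), the oxidase gene Nox4 by 1.30 (adjusted p = 1.03e-04) and Cyp3a18 by 0.56 (adjusted p = 0.0145). Female-pattern genes did not rise as a group, since of 11 listed 6 were measured, with 1 higher and 0 lower in control rats and 1 higher and 2 lower under hydrogen. In control rats Cyp2c12 was called lower under array weights (adjusted p = 0.0249) and without control CDAA replicate 2 (0.0402), and A1bg with median centring (0.0483) and without control normal-diet replicate 4 (0.0195). The 2 lower under hydrogen, named after their values were seen, were the female-specific cytochrome Cyp2c12 (−1.12 log2, adjusted p = 0.0173) and A1bg (−0.24, adjusted p = 0.0421). In these male rats Cyp2c12 read 8.43 to 9.48 log2 in the hydrogen normal-diet group and 7.07 to 8.67 in the hydrogen CDAA group. Its probe set may bind transcripts of related cytochromes, which was not tested. The Cyp2c12 call ended without any 1 of hydrogen normal-diet replicates 2 and 3 and hydrogen CDAA replicates 1 and 4 (adjusted p = 0.0501 to 0.0602), and the A1bg call with quantile normalisation applied again (0.106) and in 7 of the fits without 1 array (adjusted p up to 0.140). The 1 that rose was Sult2a2, a sulphotransferase that female rats express strongly. It was 3.20 to 3.92 log2 in control normal-diet rats and 4.13, 8.92, 5.60 and 5.68 in control CDAA rats (log2 2.66, adjusted p = 0.0295). This call ended without control CDAA replicate 2 (3.27-fold, adjusted p = 0.0935) and without any 1 of control normal-diet replicates 1 to 3 (adjusted p = 0.0593 to 0.0651). Under hydrogen Sult2a2 also rose by 2.66 log2 (limma adjusted p = 0.0240). That call ended without hydrogen CDAA replicate 2 (3.18-fold, adjusted p = 0.0772).

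**Figure D4:**
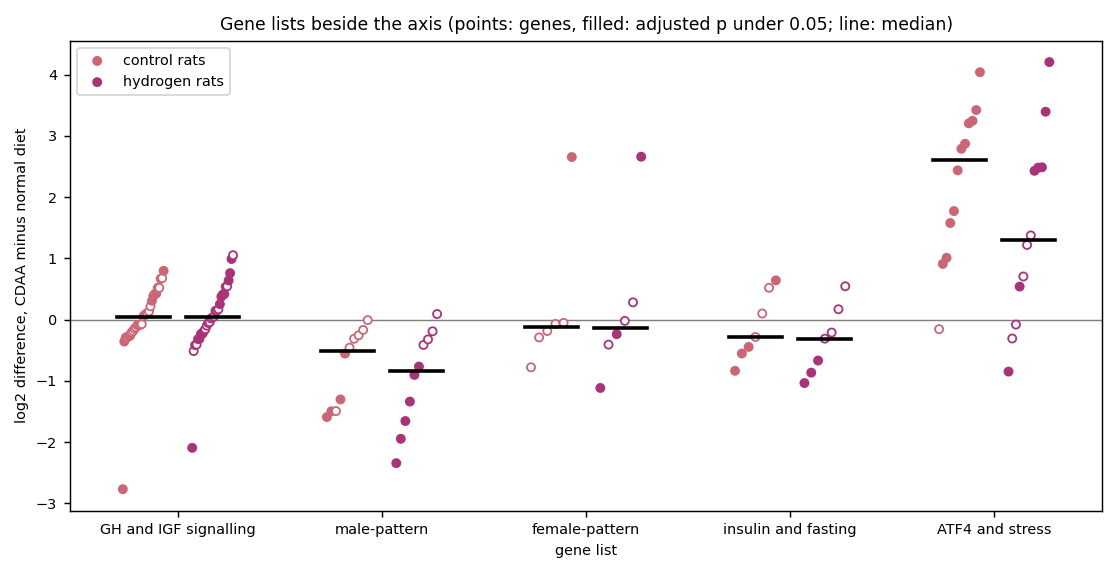
Log2 differences between the CDAA and the normal diet for the measured genes of 5 lists beside the 10 genes, in control and in hydrogen-treated rats (points are genes, filled where the adjusted p was under 0.05, and lines are medians). The medians of the male-pattern list are −0.51 and −0.83, and those of the ATF4 and stress list are 2.61 and 1.30.

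Because Igfbp1 answers to signals other than growth hormone, genes of insulin and fasting control and targets of ATF4, the transcription factor of amino acid shortage, were set beside it. The shares of all genes tested were 27.3% called higher and 13.3% lower in control rats, and 32.1% and 17.3% under hydrogen. Of 11 insulin and fasting genes 7 were measured, with 1 higher and 3 lower in control rats and 0 higher and 3 lower under hydrogen. Srebf1, an insulin-induced regulator of fat synthesis, fell by 0.55 log2, and G6pc1, the glucose-releasing phosphatase, fell by 0.84 (adjusted p = 0.00777). Foxo1, the insulin-restrained factor, fell by 0.45 log2 (adjusted p = 0.0288) and Pdk4, a fasting-induced kinase, rose by 0.64 (adjusted p = 0.0217). Under hydrogen Pdk4 went the other way and fell by 0.67 log2 (adjusted p = 0.0144), and its interaction of −1.31 had an adjusted p of 0.205. In control rats the Foxo1 call ended in 5 and the Pdk4 call in 4 of the fits without 1 array, with adjusted p-values of 0.0505 to 0.0972 and 0.0584 to 0.0680. Of the ATF4 and stress list all 12 genes were measured, with 11 higher and 0 lower in control rats (median 2.61 log2) and 6 higher and 1 lower under hydrogen (median 1.30). The 1 lower gene, named after its values were seen, was Sesn2, a stress-induced sestrin (−0.85 log2, adjusted p = 1.69e-04). Asns, asparagine synthetase, was 2.87 log2 higher in control rats, Psat1, of serine synthesis, 2.79, the stress regulator Nupr1 3.25 and the factor Atf5 0.91. Control normal-diet replicate 4, the rat with the high Igfbp1, was the highest of its group for all 12 of these genes. It had Fgf21 at 9.23 log2 against 4.59 to 5.17 in the other 3, Atf3 at 7.85 against 3.87 to 4.57, Trib3 at 8.65 against 5.83 to 6.05 and Asns at 6.16 against 4.20 to 4.58. Without this rat Nupr1 was 15.9-fold higher on the CDAA diet.

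The samples were bulk liver, in which fewer cells of a type and less RNA per cell cannot be told apart. The hepatocyte markers measured, 7 of 8, summed to 91.38 to 91.53 log2 in control normal-diet, 91.37 to 91.52 in hydrogen normal-diet, 91.47 to 91.94 in control CDAA and 91.35 to 91.66 in hydrogen CDAA rats, with 1 higher and 1 lower in each diet comparison. Sums of this size over 7 markers put the average marker near the array's highest signal of 13.73, where array signals can saturate. A change in these markers could therefore be missed, and saturation was not tested. Markers of other liver cells moved beside the falls of the axis. Among all genes tested, 27.3% were called higher and 13.3% lower in control rats, and 32.1% and 17.3% under hydrogen. The stellate sums, 7 of 7 markers, were 41.75 to 44.94 and 42.16 to 43.04 log2 on the normal diet and 46.14 to 47.31 and 46.66 to 48.21 on the CDAA diet, with 4 and 6 markers called higher. The macrophage sums, 6 of 7 markers, were 44.86 to 48.49 and 45.96 to 47.26 on the normal diet and 47.65 to 49.59 and 48.43 to 51.31 on the CDAA diet, with 3 and 5 markers higher and 1 and 0 lower. The endothelial sums, 4 of 6 markers, were 26.15 to 28.21 and 27.08 to 27.85 on the normal diet and 28.45 to 29.46 and 29.08 to 29.93 on the CDAA diet, with 2 and 3 higher. Of the bile duct and lymphocyte markers, 4 of 5 and 4 of 6 were measured, 2 and 1 were called higher, 0 and 1 lower in each diet comparison, and the defining markers Sox9 and Cd3d did not pass the filter. Of 5 blood markers 2 were measured, and both were lower in control CDAA rats. The part of other cell types in the values of the 10 genes was not tested.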

How the data were processed

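Total RNA from liver kept in RNAlater was labelled by the 3'IVT Express method, per the labels' protocols. Each probe set has 1 log2 signal per array, as deposited. Per the submitters' processing notes, these came from RMA in Affymetrix Expression Console (the sources used here give no versions). RMA quantile-normalises arrays, so a shift of all transcripts in a group would not show. Symbols were taken from the annotation of the platform, and positions and promoters from RefSeq (GRCr8).

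The members and gene lists were chosen with earlier results of these data known. Of 31139 probe sets, 97 array controls were left out, and 22634 that exceeded the 30th percentile (3.68 log2, the detection line) on at least 4 arrays were tested. Group means were fitted to all 16 arrays in limma 3.58.1 (R 4.3.3) with eBayes and Benjamini-Hochberg adjustment over all probe sets tested. The fit was tested on simulated data. A list's counts use its genes' highest probe sets. Named beyond the 10 genes were up to 4 called genes of each list with the smallest p in control rats, then Jak2, Stat5a, Stat5b and Cish, and the 2 nearest profiles of the 4 most variable members. Alternatives were renewed quantile normalisation, median centring, no filter, a replicate block, array weights, the mean of a gene's probe sets, and each array left out. Promoters were aligned with Biopython 1.88 in Python 3.11.15 and figures drawn with matplotlib 3.10.9. The number of arrays limits the precision.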

Additional observations from a re-analysis of the deposited data

Results flagged for a closer look

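Obp3 in replicate 2 of the hydrogen CDAA group, at 4.46 log2, lay apart from the other 3 rats of its group, which had 5.94 to 6.22. The gap took 0.841 of the group's range, above the critical value of Dixon's test at 95%. It was 1 of 40 combinations of gene and group examined, and chance flags about 1 in 20.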

How the results depend on the processing

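In each fit with an array left out, 8 to 9 of the 10 genes were called for the diet in control rats, all 10 of 10 under hydrogen and 0 in the other comparisons. The replicate block left these counts at 8, 10 and 0. Under it, Jak2 (adjusted p = 0.0496) and Cyp2c12 (0.0264) were called in control rats, and A1bg (0.0528) was no longer called under hydrogen. The labels tie no numbers to shared rats or days, so the numbers were not taken as pairs. Not every same-numbered pair had a correlation of deviations over 0.1 in any comparison. Over it were 9 of 24 pairs (range −0.13 to 0.33), and 3 of 4 in each hydrogen comparison. Between the control and hydrogen CDAA groups the correlations were −0.08, 0.26, 0.33 and 0.19 for replicates 1 to 4. Whether same-numbered rats shared a source of variation was not tested further. Over all probe sets, hydrogen on the normal diet called 2, with 1 under the replicate block, 46 under array weights and 0 to 11 with an array left out. Hydrogen on the CDAA diet called 71, with 21 (without control CDAA replicate 4) to 345 (without control CDAA replicate 2). The interaction called 1, with 0 under the replicate block, 3 under array weights and 0 to 21 with an array left out. For the diet, 4760 probe sets were higher and 3267 lower in control rats and 5778 and 4371 under hydrogen. With quantile normalisation applied again these were 3946 and 3825, and 4558 and 5007, and with median centring 3686 and 5274, and 4220 and 8167. Differences that changed sign were uncalled ones, with these lowest and highest log2 values when an array was left out. For the diet in control rats Socs2 had −0.56 to 0.0025. For hydrogen on the normal diet Igf1 had −0.013 to 0.043, Igfals −0.023 to 0.12, Mup5 −0.19 to 0.04 and Obp3 −0.14 to 0.12, with −0.00802 for Obp3 under array weights. For hydrogen on the CDAA diet Ghr had −0.12 to 0.073, with 0.088 as the mean of its probe sets, and Igfals −0.26 to 0.11. For the interaction Igfals had −0.32 to 0.058, Igfbp1 −0.15 to 0.51, Igfbp3 −0.44 to 0.032 and Mup5 −1.05 to 0.023. The cause was not tested. Signals below the detection line limit Mup5 and the further Obp3 probe set on the CDAA diet.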
